A study of Mus musculus with 7 samples.

Results

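The branching tip of the ureteric bud was compared with the stalk behind it in the embryonic mouse kidney at E12.5 (days after conception). The comparison used 4 of the 7 arrays of the study, namely the 2 arrays labelled as microdissected bud tips and the 2 labelled as microdissected bud stalks. The labels call the arrays of a tissue biological replicates, and strain, genotype, sex and the number of embryos in a sample are not given in the sources used here. Total RNA (1 ug, without any marker-based cell sorting named in the labels) was labelled and hybridised to Affymetrix Mouse Genome 430 2.0 arrays. Another 2 arrays held metanephric mesenchyme of the same stage, which entered the model for its spread and is given here as a reference level. The last array held a cultured subclone of the collecting duct line mIMCD-3, which was not used in the tests. All genes with a probe set assigned to them alone were compared, 18193 in number. Values are log2 intensities, differences are tip minus stalk in log2 units with the standard error (SE) of the limma fit, and a gene was called higher or lower at a Benjamini-Hochberg adjusted p under 0.05.

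The ureteric bud is an epithelial tube that grows into the metanephric mesenchyme and branches there to form the collecting duct system. Its tips hold dividing progenitor cells that carry the receptor tyrosine kinase Ret, and GDNF from the surrounding mesenchyme acts through Ret and its coreceptor Gfra1 to drive branching. Progeny of the tip fill the stalk, where cells stop branching and elongate, and the stalk outside the kidney becomes the ureter, around which a mesenchymal sleeve forms smooth muscle.

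Both tissues carried the markers of bud epithelium, and the stalk arrays also carried those of stroma. The mean log2 level of the epithelial genes Cdh1, Epcam, Krt8 and Krt18 was 11.14 in each stalk array, 11.78 in tip replicate 1 and 11.66 in tip replicate 2. The summed intensity of 13 genes of the cortical stroma was 19434 and 18763 in the stalk arrays, 3502 and 2764 in the tip arrays, and 23551 and 22971 in the mesenchyme arrays. For 12 smooth muscle genes the sums were 4311 and 4457 in stalk against 766 and 791 in tip. Most of the stalk sum came from Actc1 and Mylk, and the other 10 summed to 661 and 687 in stalk and 503 and 568 in tip. The stalk samples thus held RNA of non-epithelial genes at levels near those of mesenchyme for the stroma list, and the part of such cells in each result below was not tested. In tissue samples of this kind, fewer cells of a type and less RNA per cell cannot be told apart. Array medians lay between 5.51 and 5.62 in the 6 tissue arrays. Replicate arrays correlated across probe sets at 0.997 in stalk and 0.990 in tip, and with 2 arrays per tissue the p-values measure the spread between these samples only. The X-inactivation RNA gene Xist was 0.62 ± 0.12 (SE) lower in tip (adjusted p = 0.0151; 0.179 without stalk replicate 1 and 0.149 without stalk replicate 2), and none of 3 Y-linked genes was called.

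In all, 521 genes (2.86% of those tested) were higher in tip and 1268 (6.97%) were lower. The lower side also reached further. By at least 1 log2 unit, 162 genes (0.89%) were higher and 725 (3.99%) lower, by at least 2 units 13 were higher and 210 lower, and by at least 3 units 1 was higher and 62 lower. The median difference over all genes was 0.07 and the standard deviation 0.51. Both tip arrays lay above both stalk arrays for 28.2% of genes and below them for 22.6%. Of the calls, 29.1% were higher and 70.9% lower. With each array centred on its median the split was 48.6% higher (1024 genes) and 51.4% lower (1085), and the median difference became 0.18. Centred on the 75th percentile the split was 39.7% and 60.3%. Without stalk replicate 1, 205 genes were higher and 724 lower, without stalk replicate 2 the counts were 197 and 800, and without tip replicate 1, 769 genes were higher. Without tip replicate 2, 248 genes were higher by at least 1 unit. Of 219 distinct called genes in the 30 gene lists used here, 156 stayed called whichever of the 6 tissue arrays was left out.

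**Figure D1:**
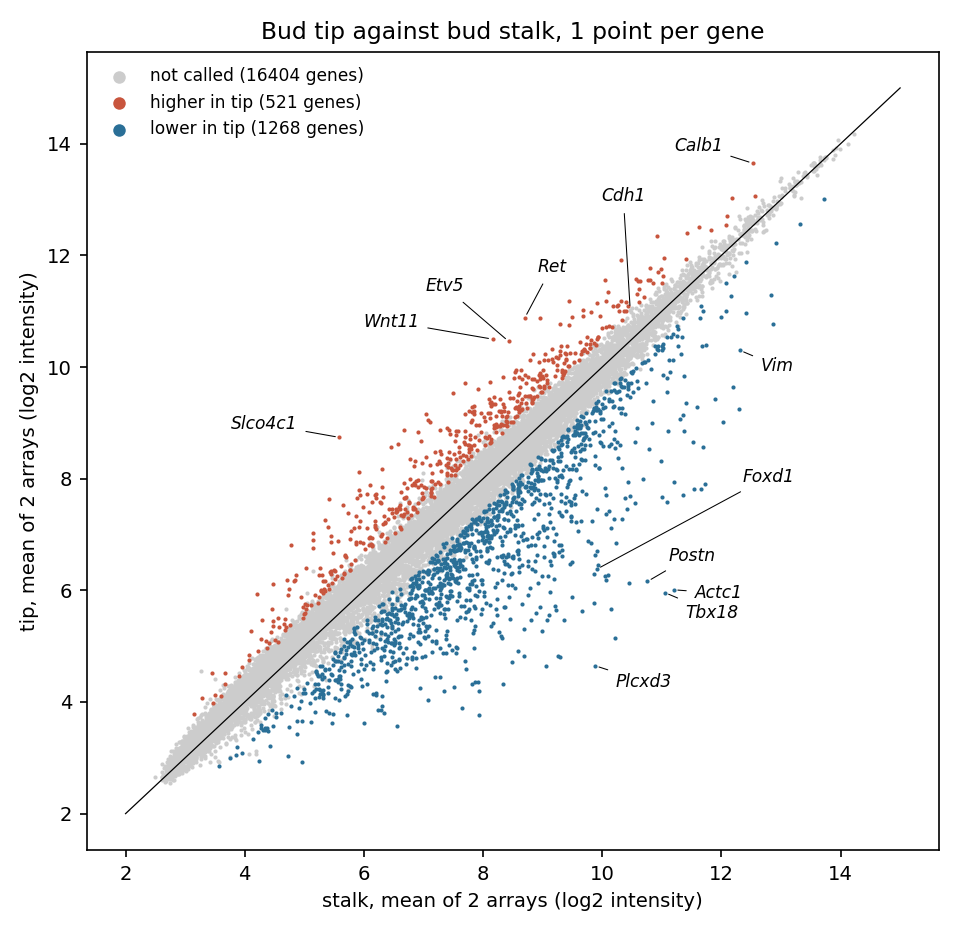
Mean log2 intensity of each of 18193 genes in the 2 stalk arrays (x axis) and the 2 tip arrays (y axis), with the line of equal values; red points are the 521 genes higher in tip, blue points the 1268 lower and grey points those not called. The blue points spread further from the line than the red ones, and the named genes Plcxd3, Actc1 and Tbx18 lie furthest below it among those labelled.

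Most genes of the bud tip and the Ret pathway were higher in tip. Of 16 measured genes of the bud tip and the Ret pathway, 12 were higher in tip and 0 lower, with a median difference of 1.60, against 2.86% higher and a median of 0.07 over all genes. Ret had log2 levels of 8.89 and 8.52 in the stalk arrays and 11.07 and 10.70 in the tip arrays. Its coreceptor Gfra1 was at 8.96 and 8.97 in stalk and 10.96 and 10.81 in tip. The tip arrays lay well above the stalk arrays for both genes, and the differences were 2.18 ± 0.21 for Ret (adjusted p = 0.000599) and 1.92 ± 0.13 for Gfra1 (adjusted p = 0.000123). Ret was far dimmer in mesenchyme (mean 4.78) than in either bud tissue, whereas Gfra1 had a mean of 8.49 there, close to its stalk level.

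Transcription factors of this list followed the same order, except Sox9 (-0.53, not called). Etv4, an ETS-family factor, was at 7.53 and 7.46 in stalk and 9.62 and 9.46 in tip. Its relative Etv5 was at 8.50 and 8.36 in stalk and 10.54 and 10.37 in tip. For each of them the tip arrays were about 4-fold brighter, with folds of 4.12 for Etv4 (adjusted p = 7.86e-05) and 4.07 for Etv5 (adjusted p = 0.000253). Sox8, an SRY-box factor, was 2.03 ± 0.19 higher, the proto-oncogene Myb 1.68 ± 0.19 higher and the LIM homeobox gene Lhx1 1.46 ± 0.24 higher.

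Secreted and feedback members of the group were among those higher. Wnt11, a tip ligand that maintains Gdnf in the mesenchyme, was at 8.17 and 8.15 in stalk and 10.84 and 10.17 in tip. That is a 5.07-fold difference (2.34 ± 0.21; adjusted p = 0.000424), and the 2 tip arrays differed more from each other than the 2 stalk arrays. Cxcr4, the receptor of the chemokine Cxcl12, was at 7.05 and 6.75 in stalk and 9.00 and 8.68 in tip (1.94 ± 0.17). Spry1, an intracellular inhibitor of receptor tyrosine kinases, was nearly identical within each tissue, at 10.04 and 10.06 in stalk and 11.56 and 11.55 in tip (1.51 ± 0.12; adjusted p = 0.000246). Dusp6, a phosphatase that inactivates ERK, was 0.95 ± 0.12 higher. The Sprouty gene Spry4 was 0.67 ± 0.16 higher, but not without stalk replicate 1 (adjusted p = 0.192), stalk replicate 2 (0.204) or tip replicate 1 (0.0694). The remaining 4 genes did not pass, with 0.50 for the protease gene Adamts18, 0.38 for Spry2, -0.42 for the membrane protease gene Mmp14 and -0.53 for Sox9 (adjusted p = 0.152, 0.111, 0.0897 and 0.186).

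Beyond the feedback genes of that list, the ERK response was divided. Of 14 further genes that respond to ERK signalling, 3 were higher (21.4%) and 2 lower (14.3%), with a median of 0.14. Over all genes the shares were 2.86% and 6.97%. The ERK phosphatase gene Dusp4 was 1.21 ± 0.14 higher, and the Ras pathway inhibitors Spred2 and Spred3 were 0.85 ± 0.13 and 0.95 ± 0.18 higher. The interleukin receptor gene Il1rap had a difference of -1.13 ± 0.13 (-0.32 and not called in the mean of its probe sets) and Phlda1 had a difference of -0.59 ± 0.13. Spred3 was not called without stalk replicate 1 (adjusted p = 0.103) or stalk replicate 2 (0.0504), Spred2 was not called without stalk replicate 2 (0.0759), and Phlda1 was not called without either mesenchyme array (0.0507), stalk replicate 1 (0.217), stalk replicate 2 (0.209) or tip replicate 2 (0.0653).

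Transcription factors of the nephric duct, the embryonic duct from which the bud grows out, were higher in tip with 1 exception where they were called. Of 16 measured, 6 were higher (37.5%) and 1 lower (6.25%), with a median of 0.29, against 2.86% and 6.97% over all genes. Sim1 was at 8.27 and 7.97 in stalk and 9.90 and 9.58 in tip, a difference of 1.62 ± 0.20 (adjusted p = 0.00177). The epithelial regulators Ovol2 and Grhl2 were 1.45 ± 0.18 and 1.12 ± 0.14 higher, the homeobox gene Emx2 1.24 ± 0.16 and Gata3, a factor required for nephric duct development, 0.91 ± 0.14 (adjusted p = 0.00598; 0.0685 without stalk replicate 2). The exception was Foxa1, a forkhead factor of endoderm and urothelium, at 7.09 and 6.86 in stalk and 4.57 and 5.04 in tip. Foxa1 was thus lower in tip by 2.17 log2 units (-2.17 ± 0.18; adjusted p = 0.000313), near its mesenchyme mean of 4.81, and its relative Foxa2 did not pass (-0.25; adjusted p = 0.41). Set against the mean of Cdh1, Epcam, Krt8 and Krt18 in each array, an alternative chosen after seeing the data, 5 members of this list were higher and 7 lower and the median was -0.29.

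Among all genes, the organic anion transporter gene Slco4c1 had the largest difference towards the tip. It was at 5.87 and 5.30 in stalk and 9.11 and 8.37 in tip, and at 3.45 on average in mesenchyme. The tip was 8.86-fold brighter (3.15 ± 0.27; adjusted p = 0.000323). The calcitonin receptor gene Calcr followed Wnt11, with means of 5.41 in stalk and 7.64 in tip (2.23 ± 0.24). Krt23, a type I keratin gene, was 2.20 ± 0.19 higher, and Ctnnd2, whose product delta-catenin binds cadherins, 2.18 ± 0.22. The mitochondrial arginase gene Arg2 (2.11 ± 0.16), the secreted protein gene Mia (2.10 ± 0.16), the sterol transporter gene Abcg5 (2.05 ± 0.18) and Tmem59l (1.97 ± 0.17) completed the leading 15 together with Ret, Etv4, Etv5, Sox8, Cxcr4 and the retinaldehyde dehydrogenase gene Aldh1a1. The receptor tyrosine kinase gene Ros1, outside the leading 15, had a mean of 5.35 in stalk and 7.26 in tip (1.91 ± 0.24). For 12 of the 15 the mesenchyme mean lay below the stalk mean. It was at or above the stalk mean for 3, namely Etv4, Etv5 and Cxcr4, so the stalk samples held the lowest level of these 3 genes among the tissues.

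**Figure D2:**
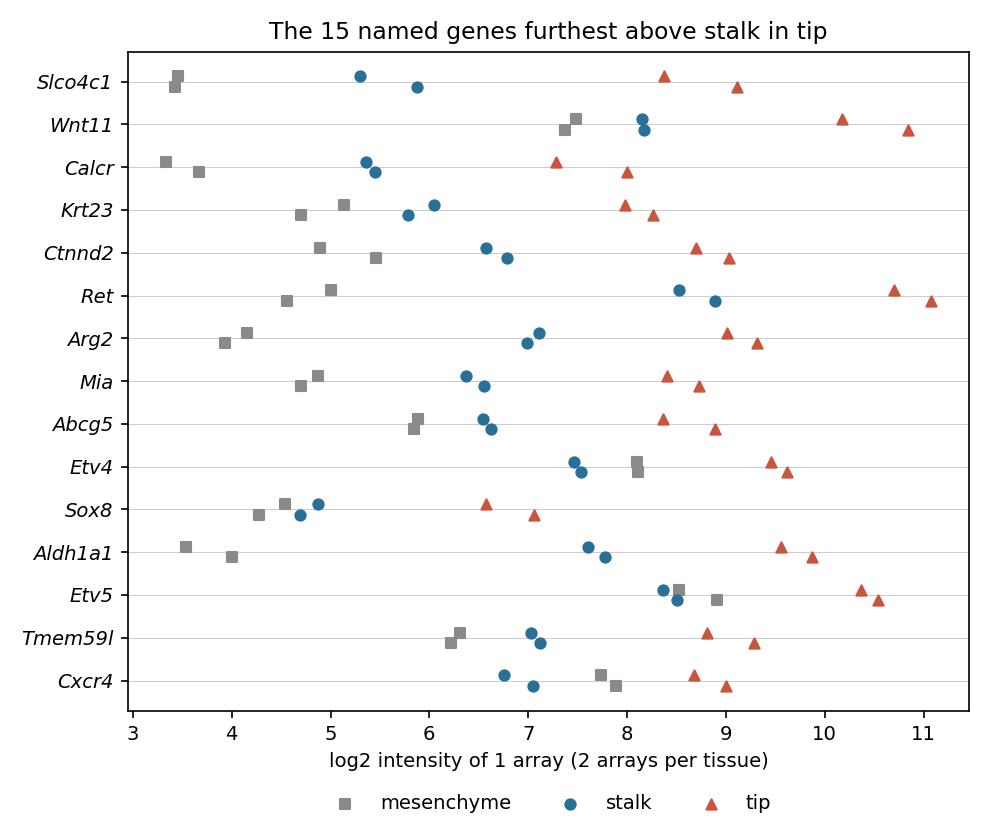
Log2 intensity on each array for the 15 named genes with the largest differences towards the tip (triangles tip, circles stalk, squares mesenchyme; 2 arrays per tissue). The triangles lie to the right of the circles in every line, and the squares lie to the right of the circles for Etv4, Etv5 and Cxcr4.

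Genes of epithelial junctions and keratins were higher in tip for 16 of 29 measured members (55.2%) and lower for 0, with a median of 0.64. The shares over all genes were 2.86% higher and 6.97% lower, with a median of 0.07. Esrp1, an epithelial splicing regulator, was at 9.27 and 9.34 in stalk and 10.86 and 10.68 in tip (1.47 ± 0.15; adjusted p = 0.0008). The claudin gene Cldn3 was at 9.79 and 9.83 in stalk and 10.95 and 11.02 in tip (1.18 ± 0.12). The P-cadherin gene Cdh3 was 1.32 ± 0.17 higher, the apical transport gene Mal2 1.40 ± 0.16 and the desmosomal gene Pkp2 1.16 ± 0.17. The adhesion gene Epcam was 0.98 ± 0.17 higher (adjusted p = 0.0093; 0.0563 without stalk replicate 2). Cdh1, which encodes E-cadherin, was at 10.45 and 10.49 in stalk and 11.09 and 10.97 in tip. Its tip arrays were both brighter, yet the difference of 0.56 ± 0.15 did not pass (adjusted p = 0.0574), nor did those of Krt8 (0.40 ± 0.12; adjusted p = 0.0825) and Krt18 (0.38 ± 0.15; adjusted p = 0.188). The call on Cdh1 depended on the setting, with adjusted p = 0.016 under the trended, robust variance model, 0.0245 with arrays centred on their median and 0.346 without stalk replicate 1. The members were thus unequal, with 13 of 29 not called and differences down to -0.18 for the kidney cadherin gene Cdh16. The number higher was 7 without stalk replicate 1 and 6 without stalk replicate 2. Relative to the mean of Cdh1, Epcam, Krt8 and Krt18, 7 were higher, 6 lower, and the median was 0.06. That scaling sets the mean difference of these epithelial genes to 0, so the shift of an epithelial list partly follows from it.

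Basement membrane genes were called in both directions. Of 31 measured genes of basement membranes and their integrin receptors, 6 were higher and 6 lower (19.4% each), with a median of 0.20. Over all genes 2.86% were higher and 6.97% lower. Frem2, a basement membrane protein of the Fraser complex, was at 9.52 and 9.38 in stalk and 11.25 and 11.13 in tip (1.74 ± 0.13; adjusted p = 0.00016). Npnt, the nephronectin that binds integrin alpha 8 on the mesenchyme, was 1.36 ± 0.14 higher, and the laminin chain gene Lama1 1.37 ± 0.13 higher. The integrin chain gene Itga3 was 0.98 ± 0.13 higher. The laminin chain genes Lama5 (0.69) and Lamc1 (0.61) completed the higher side, but not without stalk replicate 1 (adjusted p = 0.22 and 0.187), stalk replicate 2 (0.17 and 0.218) or tip replicate 1 (0.0868 and 0.0523). Neither Lama5 nor Lamc1 was called in the mean of its probe sets (0.43 and 0.44). On the stalk side, Itga8, the mesenchymal receptor chain for nephronectin, was at 9.58 and 9.41 in stalk and 6.79 and 6.24 in tip (-2.98 ± 0.21; adjusted p = 0.000124). Frem1 (-2.68 ± 0.20), the nidogen genes Nid2 (-2.50 ± 0.18) and Nid1 (-2.32 ± 0.16), and the laminin chain genes Lama2 (-1.29) and Lama4 (-0.86) were lower too. Lama4 was not called without stalk replicate 1 (0.152), stalk replicate 2 (0.0789) or tip replicate 2 (0.0624). Each of these 6 lower genes had a mesenchyme mean above its tip mean, from 7.21 for Lama2 to 9.90 for Itga8. The count of higher genes depended on scaling, with 10 when arrays were centred on their median and 4, with 13 lower, relative to the 4 epithelial genes.

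Among the called Wnt pathway genes, more were lower in tip than higher. Of 33 measured Wnt ligands, receptors and secreted antagonists, 4 were higher in tip (12.1%) and 13 lower (39.4%), with a median of -0.19. Over all genes the shares were 2.86% and 6.97%. The ligand gene Wnt6 was at 6.12 and 6.45 in stalk and 7.65 and 7.49 in tip (1.28 ± 0.23; adjusted p = 0.0108; 0.0575 without stalk replicate 1). The R-spondin receptor gene Lgr5 was 1.28 ± 0.17 higher, and the Frizzled receptor genes Fzd8 and Fzd6 were 1.05 ± 0.16 and 0.98 ± 0.13 higher. Other Frizzled genes had the opposite sign, with -2.21 ± 0.13 for Fzd1, -1.23 ± 0.14 for Fzd7 and -1.14 ± 0.14 for Fzd2. Fzd1 was at 11.38 and 11.32 in stalk and 9.23 and 9.05 in tip.

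The secreted Wnt inhibitors that were called were all lower in tip. Dkk2, an antagonist of the Wnt coreceptors, was at 8.06 and 7.80 in stalk and at 3.76 in both tip arrays. Those tip values lie below the lower quartiles of the tip arrays (4.04 and 4.23), so the size of its difference (-4.17 ± 0.16; adjusted p = 2.89e-05) is uncertain. The secreted Frizzled-related genes Sfrp2 and Sfrp1 had differences of -2.50 ± 0.13 and -1.73 ± 0.17, Frzb -1.54 ± 0.23, Dkk3 -1.28 ± 0.15 and the inhibitor gene Wif1 -0.80 ± 0.20. The Wif1 means (4.14 in stalk and 3.34 in tip) lie near or below the lower quartiles of these arrays, so the size of its difference is uncertain too, and it was not called without stalk replicate 1 (0.288), stalk replicate 2 (0.0848) or tip replicate 2 (0.17). R-spondins, which enhance Wnt signalling, were also lower, with -3.04 ± 0.13 for Rspo3 and -1.92 ± 0.19 for Rspo1. The Rspo3 tip arrays (4.13 and 3.93) lie near their lower quartiles, and its other probe set was at -0.22. The size of the Rspo3 difference is therefore uncertain too. Both R-spondin genes were brightest in mesenchyme (means 8.88 and 8.78). Lgr4 was lower as well (-0.64 ± 0.12), in contrast to Lgr5, but not without stalk replicate 1 (0.129) or stalk replicate 2 (0.178) or in the mean of its probe sets (-0.04). Wnt4, a ligand of early nephrons, was lower by a small margin (-0.82 ± 0.13; adjusted p = 0.00585), a call that was lost without stalk replicate 1 (0.0635) or stalk replicate 2 (0.059).

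Targets of canonical Wnt signalling were called in both directions. Of 12 measured, 3 were higher and 3 lower (25% each), with a median of 0.10, against 2.86% and 6.97% over all genes. The ubiquitin ligase gene Rnf43, which removes Frizzled receptors, was at 5.74 and 6.09 in stalk and 7.28 and 6.98 in tip (1.21 ± 0.17). Tnfrsf19 was 1.15 ± 0.19 higher and Axin2, a feedback inhibitor, 0.80 ± 0.14 higher (adjusted p = 0.00953; 0.114 without stalk replicate 1). The Wnt inhibitor gene Apcdd1 (-1.88 ± 0.14), the Dishevelled-binding gene Nkd1 (-1.30 ± 0.12) and Bambi (-1.17 ± 0.17) had the opposite sign. Axin2 was at 0.48 and not called in the mean of its probe sets.

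Genes of the hedgehog pathway, from the ligand to its targets, were lower in tip where they were called, Cdon excepted. Of 14 measured genes of the pathway, 6 were lower (42.9%) and 1 higher (7.14%), with a median of -0.38. Over all genes 6.97% were lower and 2.86% higher. The ligand gene Shh, which acts from the ureteric epithelium on the mesenchyme around it, was at 8.83 and 8.69 in stalk and 7.85 and 7.72 in tip (-0.97 ± 0.13; adjusted p = 0.00262). Gli1, a transcription factor and target of the pathway, was at 7.70 and 7.66 in stalk and 5.55 and 5.89 in tip (-1.96 ± 0.15; adjusted p = 0.000223). For both genes the tissues did not overlap, but another probe set of Shh was at -0.07 and not called. The receptor and target gene Ptch1 had a difference of -1.53 ± 0.14 and the decoy receptor gene Hhip one of -1.68 ± 0.17. For Ptch1, 1 of 3 probe sets was called. The coreceptor genes Gas1 (-1.29 ± 0.12) and Boc (-0.78 ± 0.18) were lower, whereas Cdon, a coreceptor of the same family as Boc, was higher by 0.55 ± 0.13. Gas1 and Boc each had a probe set of the opposite sign (0.14 and 0.10), not called. The Cdon call (adjusted p = 0.0411) was lost without either mesenchyme array (0.0744), stalk replicate 1 (0.257), stalk replicate 2 (0.292) or tip replicate 1 (0.0671). Boc was not called without stalk replicate 1 (0.11), stalk replicate 2 (0.194) or tip replicate 1 (0.0848).

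Most called genes of the BMP pathway were lower in tip. Of 17 measured, 6 were lower (35.3%) and 2 higher (11.8%), with a median of -0.36, against 6.97% and 2.86% over all genes. Bmp4, a ligand of the ureteric mesenchyme that restrains branching, was at 10.17 and 9.97 in stalk and 7.40 and 7.34 in tip (-2.70 ± 0.14; adjusted p = 4.14e-05). Bmp5 was lower (-1.38 ± 0.14), as were the BMP target genes Id2 (-1.45 ± 0.14) and Id1 (-1.16 ± 0.13), the inhibitory Smad6 (-0.87 ± 0.16) and the type II receptor gene Bmpr2 (-0.67 ± 0.14). Smad6 and Bmpr2 were not called without stalk replicate 1 (0.069 and 0.162), stalk replicate 2 (0.0842 and 0.162) or tip replicate 2 (0.0504 and 0.0664). In contrast, Bmp7, a ligand of the bud and the nephron progenitors, was at 8.12 and 7.93 in stalk and 9.05 and 9.16 in tip (1.08 ± 0.13; adjusted p = 0.00174). The type I receptor gene Bmpr1b was 1.25 ± 0.14 higher.

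The enzymes that make retinoic acid divided between the tissues. Aldh1a1 was at 7.78 and 7.60 in stalk and 9.87 and 9.56 in tip (2.02 ± 0.19; adjusted p = 0.000544), and Aldh1a3 was 1.71 ± 0.18 higher. Aldh1a2, the stromal enzyme gene, was at 10.34 in both stalk arrays and 8.25 and 8.15 in tip (-2.13 ± 0.12; adjusted p = 4.94e-05). Aldh1a2 was brighter still in mesenchyme, with a mean of 11.16, where Aldh1a1 had a mean of 3.77. Of 15 measured genes of the pathway, 3 were higher (20%) and 4 lower (26.7%), with a median of -0.28. Over all genes the shares were 2.86% and 6.97%. The other called members were the binding protein gene Crabp1 (-2.96 ± 0.18), the receptor gene Rarb (-0.99 ± 0.17), the retinaldehyde reductase gene Dhrs3 (-0.60 ± 0.13) and the retinoic acid-degrading enzyme gene Cyp26b1 (0.51 ± 0.12). Only 2 members were higher and 2 lower without stalk replicate 1, with adjusted p = 0.0602 for Rarb and 0.358 for Dhrs3. Dhrs3 was also not called without either mesenchyme array (0.0518), stalk replicate 2 (0.0918) or tip replicate 2 (0.075), and Cyp26b1 without either mesenchyme array (0.0803), stalk replicate 1 (0.281), stalk replicate 2 (0.326) or tip replicate 1 (0.0626).

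FGF and Notch genes were called in both directions. Of 13 FGF ligands and receptors, 1 was higher (7.69%) and 1 lower (7.69%), with a median of 0.05, against 2.86% and 6.97% over all genes. Fgfr3 was at 7.48 and 7.49 in stalk and 6.48 and 6.51 in tip (-0.99 ± 0.13; adjusted p = 0.00226). Fgf9, a ligand that supports nephron progenitors, was 0.66 ± 0.16 higher (adjusted p = 0.0428), which was lost without either mesenchyme array (0.0634), stalk replicate 1 (0.255), stalk replicate 2 (0.186) or tip replicate 1 (0.0648). Fgfr2, the FGF receptor of the bud, did not pass (-0.27; adjusted p = 0.256). Of 18 Notch pathway genes, 1 was higher (5.56%) and 3 lower (16.7%), with a median of 0.13. The target gene Hey2 was at 5.53 and 5.22 in stalk and 3.90 and 3.77 in tip (-1.54 ± 0.18), with the tip values below the lower quartiles of the tip arrays. The receptor genes Notch2 and Notch4 had differences of -0.90 ± 0.14 and -0.68 ± 0.15, and Nrarp, a feedback inhibitor, one of 0.66 ± 0.13. Neither Notch2 nor Notch4 was called in the mean of its probe sets (-0.39 and -0.08). Without stalk replicate 1, 0 Notch genes were higher and 1 was lower (adjusted p = 0.143 for Nrarp, 0.0582 for Notch2 and 0.313 for Notch4). Without stalk replicate 2 the counts were 0 and 2 (0.157 for Nrarp and 0.0705 for Notch4), and without tip replicate 2 Notch4 was not called (0.102).

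Guidance genes were lower in tip where they were called, with 1 exception. Of 23 measured ligands and receptors that guide migrating cells and axons, 7 were lower (30.4%) and 1 higher (4.35%). Over all genes the shares were 6.97% and 2.86%. The list median was -0.10 (0.02 when arrays were centred on their median). Slit2, a ligand that limits the field of Gdnf, was at 10.09 and 10.04 in stalk and 11.21 and 11.16 in tip (1.12 ± 0.12; adjusted p = 0.00101). Its receptor genes Robo1 and Robo2 did not pass (-0.35 and -0.41; adjusted p = 0.373 and 0.344). The semaphorin receptor gene Plxna2 was at 8.41 and 8.43 in stalk and 6.03 and 6.17 in tip (-2.32 ± 0.12; adjusted p = 4.14e-05). The ephrin receptor gene Epha7 (-1.95 ± 0.16), the netrin receptor gene Unc5c (-1.82 ± 0.13), Nrp2 (-1.34 ± 0.17) and the ligand genes Ntn1 (-1.18 ± 0.18), Slit3 (-1.14 ± 0.19) and Efnb1 (-0.70 ± 0.15) were lower. Efnb1 was not called without stalk replicate 1 (0.237), stalk replicate 2 (0.113) or tip replicate 2 (0.0939), and Nrp2 not in the mean of its probe sets (-0.31; 0.183).

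**Figure D3:**
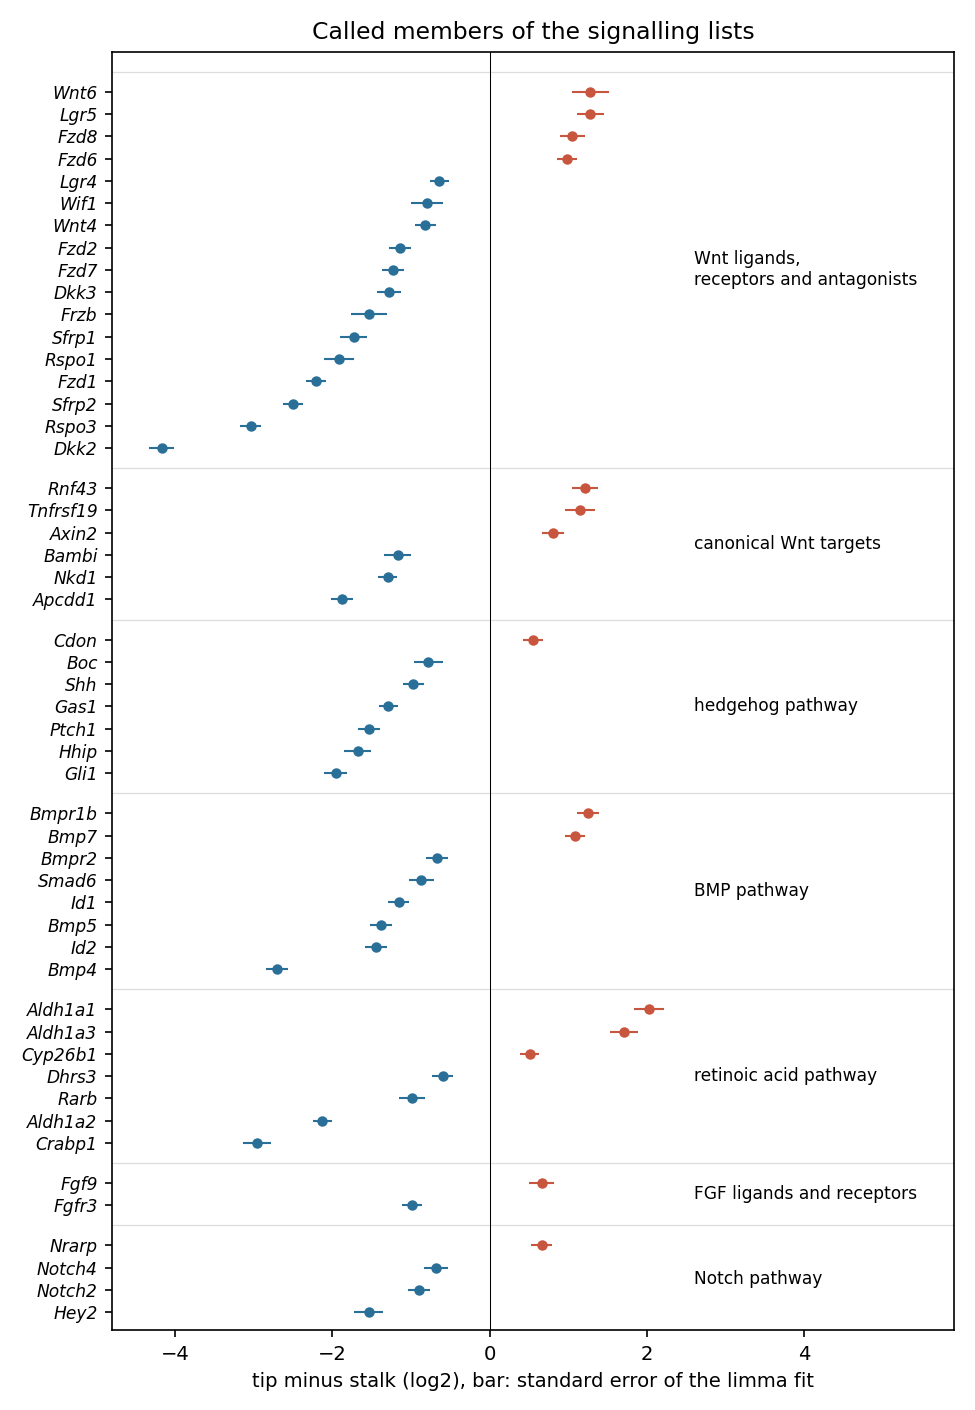
Differences between tip and stalk (log2, x axis; bars are the standard error of the limma fit) for the members of 7 signalling lists that were called, red for higher in tip and blue for lower. Called genes lie on both sides of 0 in each list, and the hedgehog list has 6 lower members and 1 higher.

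Among the 15 named genes furthest below the stalk in tip were Tbx18 and Tshz3 of the ureteric mesenchyme list and Actc1 of the smooth muscle list. Tbx18, a T-box factor that defines the ureteric mesenchyme, was at 11.16 and 10.93 in stalk and 6.43 and 5.48 in tip, a 34.1-fold difference (-5.09 ± 0.29; adjusted p = 4.94e-05). Its mean in kidney mesenchyme was 9.64, below both stalk arrays. Tshz3, a zinc finger factor needed for smooth muscle of the ureter, was at 9.43 and 9.30 in stalk and 5.49 and 5.44 in tip (-3.90 ± 0.18). Of 12 measured genes of the ureteric mesenchyme, 5 were lower (41.7%) and 2 higher (16.7%), against 6.97% and 2.86% over all genes. The list median was -0.51. The higher members were the T-box gene Tbx2 (1.00 ± 0.18; adjusted p = 0.0104; 0.0606 without stalk replicate 2) and Aldh1a3. The summed intensity of the list was 9038 and 8315 in stalk, 4521 and 3726 in tip, and 3419 and 3048 in mesenchyme.

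Actc1, the cardiac alpha-actin gene, which immature smooth muscle also uses, had the smallest p-value of the named genes. It was at 11.14 and 11.25 in stalk and 5.91 and 6.11 in tip, and at 8.52 and 8.62 in mesenchyme. The 3 tissues did not overlap, and the stalk was 36.4-fold brighter than the tip (-5.18 ± 0.13; adjusted p = 1.24e-05). Its promoter is shown because muscle genes are known to be driven by serum response factor through the CArG box, a motif that was searched on both strands. The RefSeq sequence spans 250 bases before to 50 bases after the gene start on GRCm38.p6 (chr2:114052826-114053125, minus strand), and the capitals mark the match, whose first base lies at -47 from the start.
Actc1: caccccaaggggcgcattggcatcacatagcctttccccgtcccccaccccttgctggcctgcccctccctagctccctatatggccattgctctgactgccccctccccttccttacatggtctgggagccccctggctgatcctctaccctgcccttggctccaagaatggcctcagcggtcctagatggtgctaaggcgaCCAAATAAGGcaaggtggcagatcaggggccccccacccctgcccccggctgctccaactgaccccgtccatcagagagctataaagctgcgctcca
The motif occurs in 535 of 32851 promoters of this length in the table (1.63%). Of the 8 smooth muscle list members with a promoter entry, 1 held it, namely Actc1, and that of Mylk did not. A match of letters is a description and does not show a bound site.

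Other smooth muscle genes were lower to a smaller degree or not called. Mylk, the myosin light chain kinase gene, was at 10.44 and 10.38 in stalk and 7.66 and 7.26 in tip (-2.95 ± 0.17; adjusted p = 4.94e-05). Myocd, the coactivator of serum response factor, had a difference of -1.02 ± 0.16 (-0.49 and not called in the mean of its probe sets). Tagln had one of -0.76 ± 0.17 and Des one of -0.63 ± 0.12 (-0.33 and not called in the mean of its probe sets). Of 12 measured members, 5 were lower (41.7%) and 0 higher, with a median of -0.32, against 6.97% and 2.86% over all genes. Acta2, the smooth muscle actin gene, did not pass (-0.29; adjusted p = 0.315), and its sign turned in the mean of its probe sets (0.08) and in the probe set with the smallest p (0.47). The contractile genes Myh11 (0.18) and Cnn1 (-0.06) did not pass either (adjusted p = 0.615 and 0.9). Without stalk replicate 1 or stalk replicate 2 the number lower was 3, with adjusted p = 0.228 and 0.0904 for Tagln and 0.142 and 0.187 for Des, and without tip replicate 1 Tagln had an adjusted p of 0.0539.

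The remaining genes among the lowest 15 have varied functions. Plcxd3, a phospholipase-like gene, was at 9.99 and 9.78 in stalk and 4.95 and 4.36 in tip, the largest difference of the named genes at 37.4-fold (-5.23 ± 0.23; adjusted p = 2.89e-05). Sulf1, an enzyme that trims heparan sulfate, was 33.7-fold brighter in stalk, the matrix gene Postn 24.2-fold and the matrilin gene Matn2 22.5-fold. The protocadherin gene Pcdh8, the potassium channel gene Kcnk2, the collagen gene Col25a1 and the BMP-binding gene Bmper were 22.3-fold, 21.3-fold, 21.3-fold and 19.9-fold brighter in stalk. These folds are of the brightest probe set of a gene. Another probe set of Sulf1 was at 0.09 and another of Col25a1 at -0.02, neither of them called. The interferon-inducible GTPase gene Iigp1 (17.0-fold), the pentraxin gene Ptx3 (16.4-fold) and the anion exchanger gene Slc26a7 (16.1-fold) followed. For all 15 lowest genes the mesenchyme mean lay between those of tip and stalk. Bmper was close to equal in mesenchyme (10.40 and 10.47) and stalk (10.50 and 10.39), while Plcxd3 and Dkk2 were much dimmer in mesenchyme than in stalk.

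**Figure D4:**
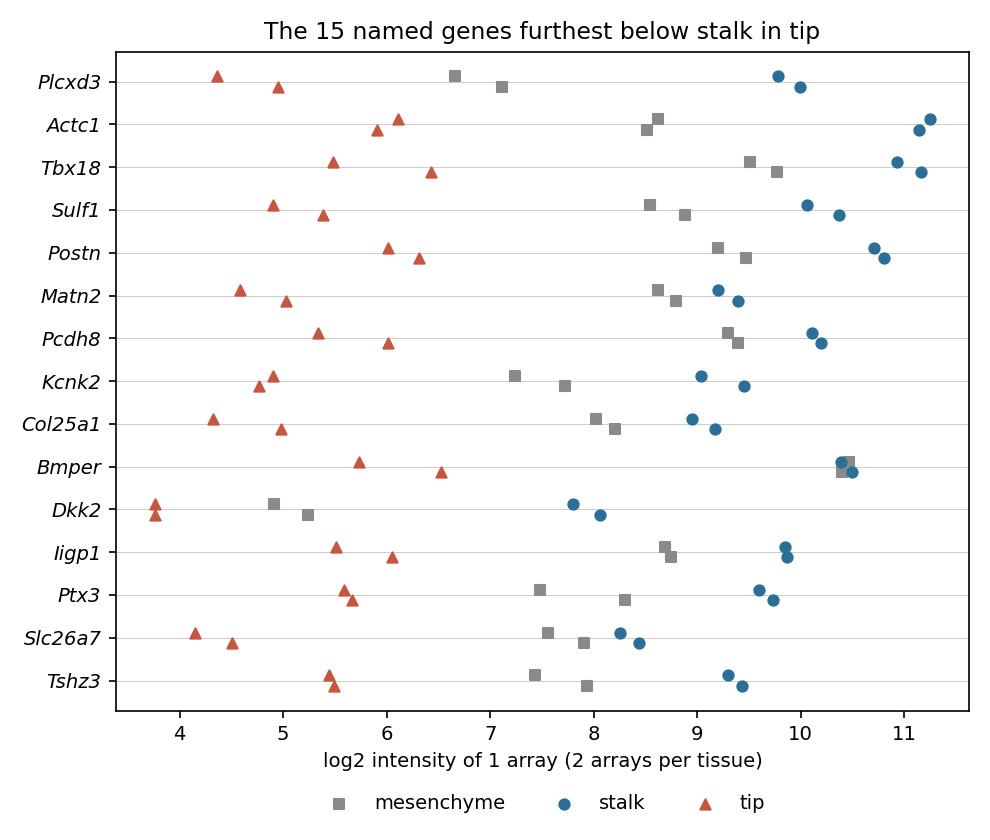
Log2 intensity on each array for the 15 named genes with the largest differences towards the stalk (triangles tip, circles stalk, squares mesenchyme; 2 arrays per tissue). The triangles lie left of the other symbols in every line, and the squares lie between triangles and circles for all 15 group means.

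Stroma, mesenchymal state and interstitial matrix were lower in tip almost throughout. All 13 measured genes of the cortical stroma were lower, with a median of -2.37, against 6.97% of all genes lower. Foxd1, the defining factor of the cortical stroma, was at 9.94 and 9.88 in stalk, 6.63 and 6.14 in tip and 11.12 and 11.06 in mesenchyme (-3.53 ± 0.17; adjusted p = 3.47e-05). The growth factor receptor gene Pdgfra was at 11.10 and 11.08 in stalk and 7.92 and 7.26 in tip (-3.50 ± 0.21). The nuclear receptor gene Nr2f1 (-3.64 ± 0.19) and the homeobox genes Meis1 (-3.56 ± 0.20) and Meis2 (-3.13 ± 0.14) had similar differences.

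Among 14 mesenchymal state genes, the calls were 13 lower (92.9%) and 0 higher, with a median of -2.33. Among all genes, 6.97% were lower and 2.86% higher. Vim, the intermediate filament gene of mesenchyme, was at 12.34 and 12.29 in stalk and 10.35 and 10.26 in tip (-2.01 ± 0.14; adjusted p = 0.000111). The repressors of the epithelial state Zeb2 (-3.59 ± 0.22), Zeb1 (-2.43 ± 0.12) and Snai2 (-2.46 ± 0.19) were lower, as were the factors Prrx1 (-3.50 ± 0.31) and Twist1 (-2.89 ± 0.19) and the cadherin gene Cdh11 (-3.02 ± 0.16). S100a4 did not pass (-0.14; adjusted p = 0.631). The interstitial matrix list had 26 measured members, 21 of them lower (80.8%) and 0 higher, with a median of -2.09. The fibrillar collagen gene Col1a1 was at 10.11 and 10.02 in stalk and 6.45 and 5.92 in tip (-3.88 ± 0.20), the proteoglycan genes Vcan and Lum had differences of -3.82 ± 0.18 and -3.76 ± 0.16, and Col3a1 one of -3.04 ± 0.14. The elastin gene Eln (-0.10) and the tenascin gene Tnc (-0.40) did not pass (adjusted p = 0.775 and 0.179). The summed matrix intensity was 29386 and 28712 in stalk against 7511 and 6881 in tip.

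Genes of nephron progenitors were lower in tip for 11 of 13 measured members (84.6%) and higher for 0, with a median of -1.40. The shares over all genes were 6.97% lower and 2.86% higher. Eya1 was at 9.09 and 8.98 in stalk, 7.05 and 6.55 in tip and 11.20 on average in mesenchyme (-2.23 ± 0.18; adjusted p = 0.000232). The patterning genes Hoxa11 and Hoxd11 had differences of -2.58 ± 0.13 and -2.38 ± 0.21, Osr1 one of -1.84 ± 0.19 and Sall1 one of -1.40 ± 0.17. Gdnf, the ligand of Ret, was at 7.08 and 7.16 in stalk and 6.10 and 5.87 in tip (-1.14 ± 0.14; adjusted p = 0.002), both below its mesenchyme mean of 8.81. Six2, which keeps progenitors undifferentiated, was at 7.58 and 7.63 in stalk and 6.80 and 6.86 in tip (-0.77 ± 0.12; adjusted p = 0.00593; 0.0653 without stalk replicate 1 and 0.0792 without stalk replicate 2). Its mesenchyme mean was 9.86. Cited1 did not pass (0.31; adjusted p = 0.378). The summed intensity of the list was 4021 and 3743 in stalk, 1476 and 1166 in tip, and 11558 and 10359 in mesenchyme.

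**Figure D5:**
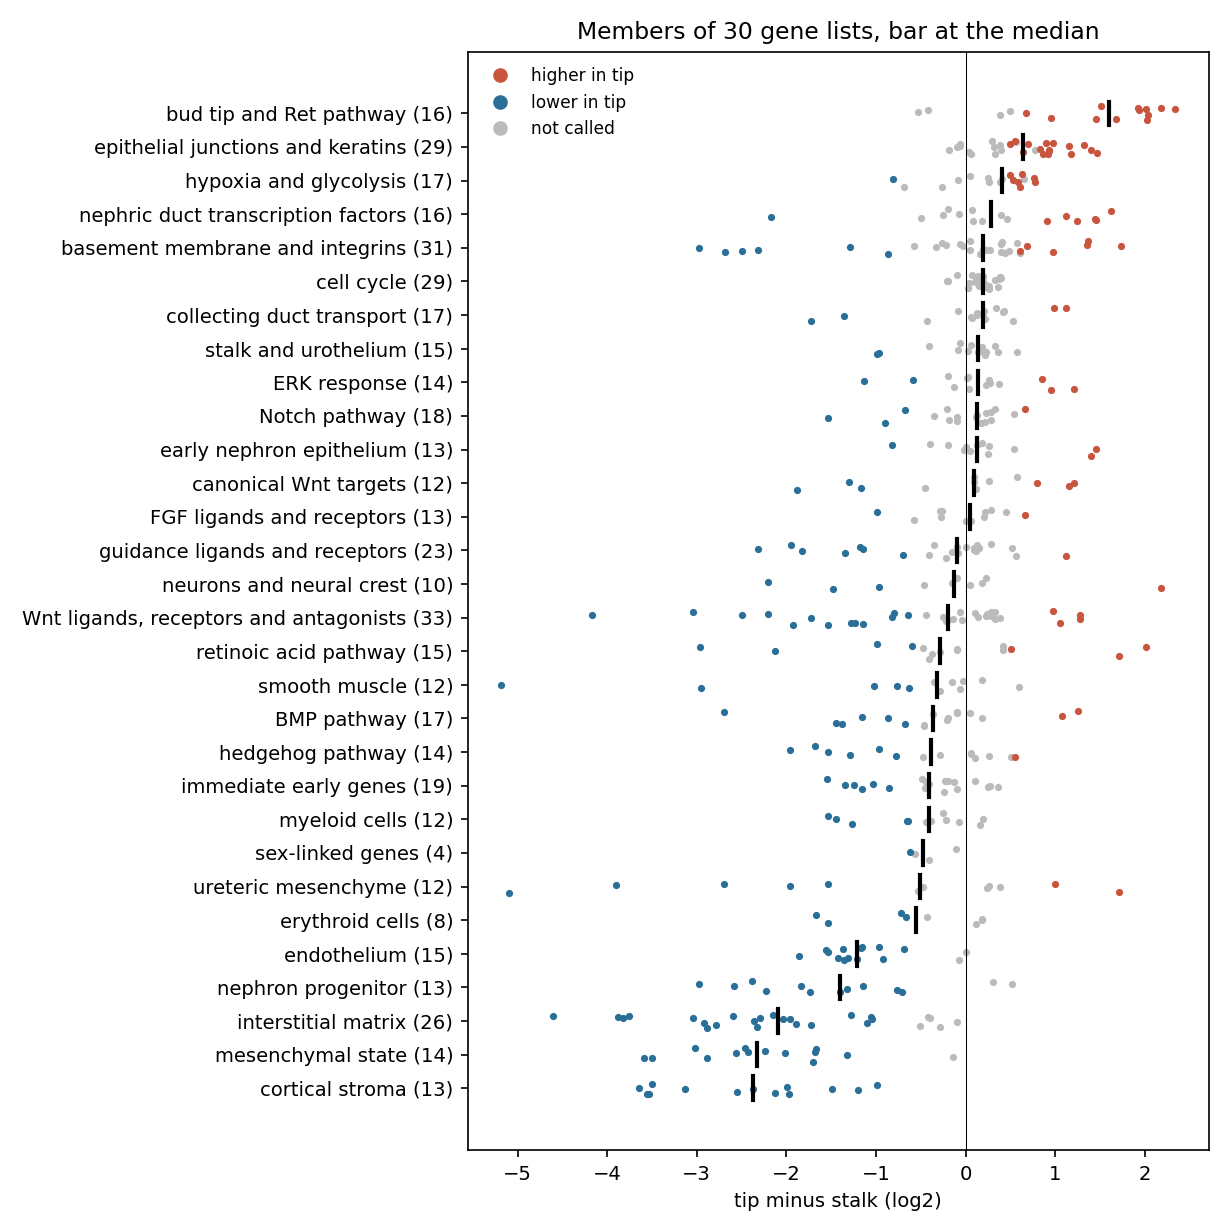
Differences between tip and stalk (log2) for every measured member of 30 gene lists, with the number measured in brackets and a bar at the list median; red members were higher in tip, blue lower and grey not called. The bud tip list has its median at 1.60, and the cortical stroma, mesenchymal state and interstitial matrix lists have theirs at -2.37, -2.33 and -2.09.

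Of 15 measured genes of the stalk and its urothelial fate, 0 were higher in tip and 2 (13.3%) lower, with a median of 0.14, against 2.86% higher and 6.97% lower over all genes. Besides Shh, the nuclear receptor gene Pparg was lower (-0.99 ± 0.20; adjusted p = 0.0171; 0.0883 without stalk replicate 1 and 0.0625 without stalk replicate 2). Wnt7b, a stalk ligand that controls the medullary collecting duct, did not pass (-0.08 ± 0.14; adjusted p = 0.791), and its sign turned with arrays centred on their median (0.04), without stalk replicate 2 (0.03) and without tip replicate 1 (0.03). Wnt9b, the stalk ligand that induces nephrons, had 0.58 ± 0.24 and did not pass (adjusted p = 0.208). None of the 5 uroplakin genes was called, with differences from 0.21 for Upk3b to 0.36 for Upk2. A p above the threshold does not show that these genes were equal. The list's median level was 5.56 and 5.62 in the stalk arrays, near the medians of those arrays (5.51 and 5.59). Without the dimmest 40% of genes, 6 of the 15 members remained. Relative to the 4 epithelial genes, 6 members were lower, the list median was -0.44 and Wnt7b was at -0.66 (adjusted p = 0.0242).

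Genes of collecting duct transport were called for 4 of 17 members, 2 in each direction (11.8% each), with a median of 0.19. Over all genes 2.86% were higher and 6.97% lower. Calb1, the calcium-binding calbindin of the bud, was at 12.54 and 12.53 in stalk and 13.67 and 13.62 in tip (1.12 ± 0.22; adjusted p = 0.0157). The call on Calb1 was lost when any of these arrays was left out, with adjusted p from 0.0537 without tip replicate 1 to 0.0638 without tip replicate 2. Sgk1, a kinase gene of the aldosterone response, was at 8.65 and 8.53 in stalk and 7.09 and 6.62 in tip (-1.73 ± 0.19). The mesenchyme arrays held it at 9.11 and 8.79, above both stalk arrays. Hsd11b2, which protects the mineralocorticoid receptor from cortisol, was at 10.21 and 10.23 in stalk and 9.02 and 8.70 in tip (-1.36 ± 0.14; adjusted p = 0.000937). The mesenchyme mean of Hsd11b2 (9.72) lay between those of tip and stalk. The mineralocorticoid receptor gene Nr3c2 itself did not pass (-0.08; adjusted p = 0.783), nor did Aqp2 (0.22; adjusted p = 0.545). Without stalk replicate 2, 0 members were higher.

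Endothelium genes were lower in tip for most members, and erythroid and myeloid genes for fewer. For comparison with the counts below, 6.97% of all genes were lower and 2.86% higher. Of 15 endothelium genes, 13 were lower (86.7%) and 0 higher, with a median of -1.21. Pecam1 was at 7.48 and 7.58 in stalk and 6.26 and 6.08 in tip (-1.37 ± 0.13; adjusted p = 0.000565), below its mesenchyme mean of 8.11. The list's summed intensity was 3318 and 3273 in stalk, 1630 and 1552 in tip, and 5314 and 4859 in mesenchyme. Of 8 erythroid genes, 4 were lower (50%), 0 higher and 4 not called, with a median of -0.55. The embryonic globin gene Hbb-bh1 was at 10.58 and 10.59 in stalk and 9.03 and 8.79 in tip (-1.67 ± 0.13). Without stalk replicate 1 or stalk replicate 2 the erythroid count was 2. Of 12 myeloid genes, 5 were lower, 0 higher and 7 not called, with a median of -0.41, led by the complement gene C1qb (-1.53 ± 0.28; 0.0518 adjusted without stalk replicate 1 and 0.0771 without tip replicate 2), the receptor gene Csf1r (-1.45 ± 0.26; -0.55 and not called in the mean of its probe sets) and C1qa (-1.27 ± 0.15). The myeloid count was 2 with arrays centred on the 75th percentile and 2 without stalk replicate 1, 3 without stalk replicate 2 and 3 without tip replicate 1. In the list of 10 neuronal and neural crest genes, 3 were lower (30%) and 1 higher (10%), against 6.97% and 2.86% over all genes. The lower genes included Nefm (-2.20 ± 0.17) and Nefl (-1.48 ± 0.14), and the 1 higher was Ret, which neural crest also uses.

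No cell cycle gene was called in the limma fit. Of 29 measured, 0 were called, with a median of 0.19, while an unadjusted p under 0.05 was reached by 5 with a positive and 0 with a negative difference. Mki67 had 0.04 and Top2a 0.11 (adjusted p = 0.885 and 0.649). Under the trended, robust variance model 10 were higher and 1 lower, with arrays centred on their median 5 were higher, and relative to the 4 epithelial genes 21 were lower. Of 19 immediate early genes, which respond within minutes to stimulation and to tissue handling, 6 were lower (31.6%) and 0 higher. Over all genes 6.97% were lower and 2.86% higher. The list median was -0.41. Fos was at 12.83 and 12.84 in stalk and 11.36 and 11.22 in tip (-1.55 ± 0.13; adjusted p = 0.000247), and Fosb (-1.35), Klf4 (-1.25), Klf2 (-1.15), Dusp1 (-1.03) and Atf3 (-0.85) were lower. Atf3 was not called without stalk replicate 1 (adjusted p = 0.187), stalk replicate 2 (0.119) or tip replicate 2 (0.0919).

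Of 17 measured genes of hypoxia and glycolysis, 7 were higher in tip (41.2%), 1 was lower (5.88%) and 9 were not called. Over all genes 2.86% were higher and 6.97% lower. The list median was 0.41. The phosphofructokinase gene Pfkl was at 10.42 and 10.38 in stalk and 11.21 and 11.14 in tip (0.78 ± 0.12; adjusted p = 0.00589). The glucose transporter gene Slc2a1 was 0.76 ± 0.17 higher, the pyruvate kinase gene Pkm 0.63 ± 0.12 and the lactate dehydrogenase gene Ldha 0.61 ± 0.12, while the platelet-type phosphofructokinase gene Pfkp had -0.81 ± 0.14. The hypoxia targets Vegfa (-0.26) and Ndrg1 (-0.69) did not pass (adjusted p = 0.27 and 0.0611). Without stalk replicate 1 or stalk replicate 2, 0 members were higher and 0 lower. Without either mesenchyme array or either tip array 4 were higher, and relative to the 4 epithelial genes 0 were higher, 5 lower and the median was -0.17.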

How the data were processed

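The tissue arrays were hybridised with biotin-labelled cRNA from total RNA, per the labels. The deposited table gives linear intensity values, which the authors computed over all 7 arrays together by robust multichip analysis (RMA), per the series design text and the submitters' processing notes; its software is not given in the sources used here. RMA in its usual form corrects background, gives all arrays 1 distribution of probe signals and summarises probe sets. It gives no detection calls and compresses differences of dim genes, and each difference is relative to the other genes of an array.

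The deposited intensities (5.08 to 19587) were converted to log2 here. Of 45101 probe sets, 64 are controls, 34945 list 1 gene, 932 several and 9160 none in the array annotation, from which the symbols come. Each of 18193 genes was represented by the probe set that was brightest on average across the 7 arrays. The 6 tissue arrays were fitted in limma 3.58.1 (R 4.3.3) with a coefficient per tissue (3 residual degrees of freedom), followed by empirical Bayes moderation, two-sided tests and Benjamini-Hochberg adjustment over all genes, called at an adjusted p under 0.05. The pipeline was tested on simulated data. No gene was filtered.

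The text names the 15 genes at each end among called genes whose arrays do not overlap, leaving out clone names, in each list the called members of greatest absolute difference (up to 6), and a set of fixed genes. Further list members were named after their values were seen. The 30 lists hold 520 entries, of which 500 were measured; the others were not analysed here. The members, lists and tests were chosen with earlier results of these data known. Alternatives concerned the arrays in the fit, the replicate number, the variance model, scaling, dim genes, the probe set of a gene, a pseudocount of 16 and leaving out each array. Another, scaling to the mean of Cdh1, Epcam, Krt8 and Krt18, was chosen after seeing the data. Plots were made in Python 3.11.15 (matplotlib 3.10.9).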

Additional observations from a re-analysis of the deposited data

How the results depend on the processing

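With 2 arrays per tissue and 3 residual degrees of freedom, precision is limited by the number of arrays, and no detection calls were given for dim genes. The main counts were 521 genes higher and 1268 lower in tip, of which 162 and 725 by at least 1 log2 unit. With trend and robust variance 890 were higher. With arrays centred on their median 1024 were higher. Relative to the 4 epithelial genes and with the 4 tip and stalk arrays alone, an alternative chosen after seeing the data, 175 were higher and 10777 lower (38 and 2019 by at least 1 unit), and the median over all genes was -0.51 in place of 0.07. Leaving out each array gave 197 to 769 higher, 724 to 1789 lower and 138 to 248 higher by at least 1 unit. The counts with the 4 tip and stalk arrays alone were 471 and 1185.

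The tissues share replicate numbers, which the labels do not call pairs. The deviation of replicate 1 from replicate 2, taken per probe set, had a correlation of 0.43 between stalk and tip, 0.39 between mesenchyme and stalk and 0.57 between mesenchyme and tip. With the replicate block, 1623 genes were higher and 2131 lower over the 6 tissue arrays, and 1648 and 2173 over the 4 tip and stalk arrays.

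Of 162 called genes named by the rule, 112 were called under each of the 18 alternatives, 12 more under each of the 17 that tested them (the filter on dim genes left these out), and 0 of the 162 turned sign under any of them. Outside those 162, called list members such as Cdon (0.55 to -0.03) and Cyp26b1 (0.51 to -0.07) turned sign relative to the 4 epithelial genes. Among genes not called, Cdh1 passed with the replicate block (adjusted p = 0.012 over the 6 tissue arrays) and turned from 0.56 to -0.02 relative to the 4 epithelial genes. Cdh1 is itself among those 4 genes, so the latter value is its deviation from a mean that includes it and is no check on its difference. Wnt7b turned from -0.08 to 0.04 with arrays centred on their median, and lay between -0.18 and 0.03 when an array was left out. Acta2 turned from -0.29 to 0.08 in the mean of its probe sets and 0.47 in the probe set with the smallest p. Of the 166 named genes, 17 have a probe set of the opposite sign, and for 0 of the 17 was that probe set called. Acta2, Csf1r, Myocd, Notch2, Notch4, Nrp2 and Sulf1 are among them.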

Other observations

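Most genes lower in tip were also brighter in mesenchyme than in tip, and for a smaller set the mesenchyme was as dim as the tip or dimmer. Of the 1268 genes lower in tip, 38 had a mesenchyme mean at or below their tip mean, 11 of them with a difference of at least 1 log2 unit; these genes were picked after their values were seen, and the set has no test of its own. Gata2, a zinc finger transcription factor, was at 10.16 and 10.38 in stalk, 8.37 and 8.36 in tip, and 8.30 on average in mesenchyme (-1.90 ± 0.13). The POU-domain factor gene Pou3f1 was at 8.64 and 8.53 in stalk, 6.74 and 6.57 in tip, and 6.51 on average in mesenchyme (-1.93 ± 0.15). Both had stalk arrays far above all arrays of the other tissues. Enpep, which encodes the aminopeptidase that cleaves angiotensin II, had a difference of -2.03 ± 0.32, with tip arrays at 7.06 and 6.07. The endothelin receptor gene Ednrb had a difference of -1.44 ± 0.16 and Fxyd4, a regulator of the sodium pump, one of -1.20 ± 0.15. Shh and Dkk3 belong to the same set.

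For the reverse order, 106 of the 521 genes higher in tip had a mesenchyme mean at or above their stalk mean. The tip was above the stalk by at least 1 log2 unit for 15 of them. Mesenchyme was not tested against stalk, and for some genes the means were level, such as Aen at 8.41 in each. This set too was picked after its values were seen. Besides Etv4, Etv5 and Cxcr4 the 106 included 2 genes known from undifferentiated cells. Mycn, a Myc-family factor of growing progenitors, was at 9.25 in both stalk arrays, 10.17 and 10.15 in tip, and 9.71 on average in mesenchyme (0.91 ± 0.12). Lin28a, which blocks maturation of let-7 microRNAs, was at 3.89 and 4.33 in stalk, 5.21 and 5.32 in tip, and 5.17 and 5.11 in mesenchyme (1.15 ± 0.17). Its stalk values lie near the lower quartiles of those arrays, so the size of its difference is uncertain. Relative to the 4 epithelial genes neither passed (adjusted p = 0.0514 for Mycn and 0.0516 for Lin28a). Of 13 genes of the early nephron epithelium, 2 were higher in tip (15.4%) and 1 lower (7.69%), with a median of 0.13. Over all genes 2.86% were higher and 6.97% lower. The POU-domain factor gene Pou3f3 was at 9.55 and 9.42 in stalk and 10.97 and 10.81 in tip (1.40 ± 0.14), the other higher gene was Lhx1, and the lower was Wnt4, which was not called without stalk replicate 1 (0.0635) or stalk replicate 2 (0.059).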
